A study of Arabidopsis thaliana with 6 samples.

Results

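WRKY genes encode plant transcription factors, and their annotated bodies were set here against the domains enriched in monomethylated lysine 27 of histone H3 (H3K27me1) and in methylated cytosine (5mC) in Arabidopsis thaliana leaves. The genes were defined by name: every protein-coding gene of the TAIR10.1 gene table whose symbol is WRKY followed by a number. The family was chosen with earlier results of these data known. This gave 67 genes out of 27444 protein-coding genes on the 5 nuclear chromosomes. Another 5 genes carry a WRKY number only among their synonyms (ABO3, ZAP1, TTG2, TTR1 and RRS1); they were not counted as members and are described separately.

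All material was young leaf of Col-0, the accession of the reference genome, grown on soil at 22.5 °C with 8 h of light and 16 h of dark. No genotype other than Col-0 and no treatment is named in the labels. The groups were 2 samples of chromatin immunoprecipitation with an antibody to H3K27me1, 2 samples of immunoprecipitation of methylated DNA (MeDIP) with an antibody to 5mC, and 2 input samples for the MeDIP. No input or other control for the H3K27me1 immunoprecipitation is among the samples. Whole leaves hold many cell types, so that a domain present in part of the cells and a weak domain present in all of them cannot be told apart. The data were 2 lists of domains, 1 per mark, with a position and a read count for each domain and no value per sample. The values below are therefore positions in 1 genome with no replicate error, and no test was made between the WRKY genes and other genes.

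WRKY factors share the WRKY domain, a DNA-binding fold with a zinc finger that recognises the W-box in the promoters of target genes, many of them genes of defence. Group I members mostly carry a pair of WRKY domains, group II members carry a single one (subgroups IIa to IIe), and group III members carry a single one with a different zinc finger. Many members are induced by pathogens, salicylic acid or senescence and act downstream of MAP kinase cascades, while others act in pollen, seeds or roots. H3K27me1 is placed by ATXR5 and ATXR6 and is best known from silent heterochromatin. 5mC is dense on silenced transposons and also occurs in the bodies of many expressed genes, mostly in the CG context.

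Like most protein-coding genes, most WRKY genes lay outside both lists. A gene described as without a mark had no base in a called domain of it, and marks below the calling threshold would not be seen. Of the 67 genes, 56 had no base in a domain of either mark and 11 (16.4%) were touched by at least 1 of them. Domains of either mark touched 31.0% of all protein-coding genes and 28.4% of those of like length and region. H3K27me1 domains touched 8 genes (11.9%), namely WRKY7, WRKY19, WRKY23, WRKY34, WRKY41, WRKY42, WRKY60 and WRKY67; touched means that at least 1 bp of the gene lay in a domain. Among all protein-coding genes H3K27me1 touched 22.3%. 5mC domains touched 6 WRKY genes (8.96%), namely WRKY17, WRKY19, WRKY41, WRKY42, WRKY47 and WRKY72, against 15.6% of all protein-coding genes. Domains of both marks touched 3 genes, WRKY19, WRKY41 and WRKY42, and the share of all protein-coding genes touched by both was 6.96%.

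Longer genes and genes near centromeres are touched more often, so the family was also set beside protein-coding genes of like length and region. For this, the share in each class of length (deciles) and region (arm or pericentromere) over all protein-coding genes was weighted by the number of WRKY genes in that class. Genes of like length and region were touched by H3K27me1 in 21.6% of cases, which corresponds to 14.4 of 67 genes where 8 were found. For 5mC the like share was 11.5%, or 7.69 of 67 genes where 6 were found. The H3K27me1 count was thus 55.4% of the like value and the 5mC count 78.1% of it. For both marks together the like value was 3.09 genes, next to the 3 found.

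Covered bases differed more than counts of genes. WRKY genes spanned 150790 bp in all, of which 4705 bp (3.12%) lay in H3K27me1 domains, against 7.91% in genes of like length and region. For 5mC the values were 1448 bp (0.960%) and 2.90%. A gene body at least 50% inside H3K27me1 domains was found for WRKY34 alone, where 7.62% of all protein-coding genes and 6.59% of like genes (4.42 of 67) reached this level. No WRKY gene had 50% of its body in 5mC domains; the share was 3.69% over all protein-coding genes and 1.65% over like genes (1.11 of 67).

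**Figure D1:**
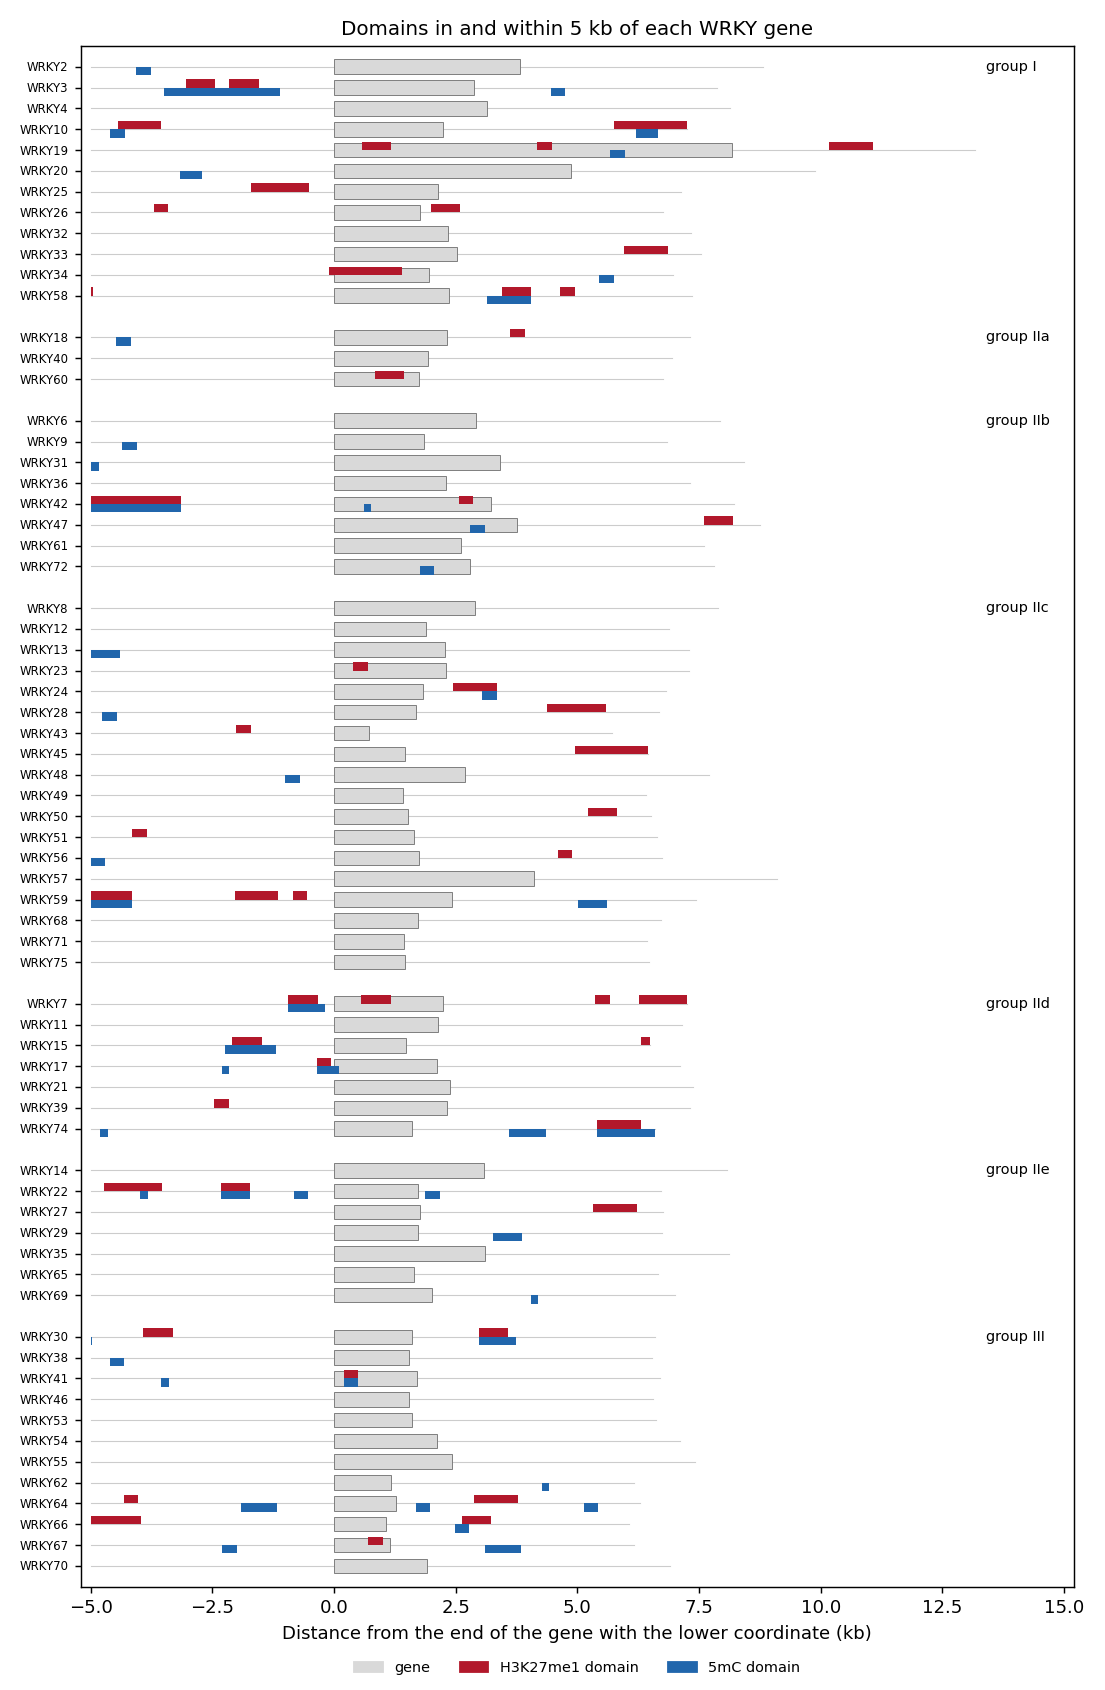
Map of all 67 WRKY genes, 1 row per gene in groups I to III. Grey boxes are gene bodies, red boxes H3K27me1 domains and blue boxes 5mC domains, in kb from the gene end with the lower coordinate; thin lines reach 5 kb to each side, and strand is not shown. Coloured boxes lie inside the grey box in 11 rows, and the longest one is in WRKY34.

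WRKY34 is expressed in pollen and acts in male gametophyte development, where its protein is a substrate of MAP kinases. It had the highest coverage of the family, with 1405 of its 1956 bp (71.8%) in a single H3K27me1 domain. This domain spanned 1500 bp at chr4:13357501-13359000 (TAIR10) and held 625 reads. Its other end reached 95 bp beyond the gene and into the annotated neighbour CSN6B, a subunit of the COP9 signalosome. No base of WRKY34 was in a 5mC domain, and the nearest one lay 3499 bp away. WRKY34 alone held 29.9% of all H3K27me1-covered bases of the family. WRKY2, another group I member that acts with WRKY34 in pollen, had neither mark, with the nearest H3K27me1 domain 18913 bp away and the nearest 5mC domain 3763 bp away.

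WRKY60 ranked next, with 600 of 1752 bp (34.2%) in an H3K27me1 domain of 243 reads at chr2:10630501-10631100. WRKY60 acts with WRKY18 and WRKY40, the other members of group IIa, in repressing basal defence. These relatives had no base in either list. The nearest H3K27me1 domain lay 1300 bp from WRKY18 and 9160 bp from WRKY40, and the nearest 5mC domain 4176 bp and 21310 bp. The marked member of this trio was therefore WRKY60, through H3K27me1 only.

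WRKY7, a calmodulin-binding member of group IId, had 600 of 2246 bp (26.7%) in an H3K27me1 domain of 264 reads at chr4:12572101-12572700. Domains of both marks also lay just outside one end of the gene. An H3K27me1 domain of 600 bp lay 337 bp outside that end, and a 5mC domain of 750 bp with 1060 reads lay 187 bp outside it and overlapped a long non-coding RNA gene (AT4G07250). All 600 bp of that outer H3K27me1 domain were inside the 5mC domain. The H3K27me1 domain in the gene body shared no base with a 5mC domain.

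WRKY67, a group III member, had 300 of 1159 bp (25.9%) in an H3K27me1 domain of 127 reads at chr1:24829201-24829500. WRKY64, its annotated neighbour on chromosome 1, had neither mark in its body; a 5mC domain lay 399 bp away, over the sucrose transporter gene SUC7. ABO3, which carries the synonym WRKY63 and lies close by, had 900 of 1224 bp (73.5%) in an H3K27me1 domain. Marked and unmarked group III genes thus stood near each other on this stretch. WRKY54 and WRKY55, neighbours on chromosome 2, were by contrast both far from any domain, at more than 23 kb: the nearest H3K27me1 domain lay 26718 bp from WRKY54 and 23377 bp from WRKY55.

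WRKY23, a group IIc member with roles in auxin responses of the root, had 300 of 2297 bp (13.1%) in an H3K27me1 domain of 124 reads at chr2:19405201-19405500. Its nearest 5mC domain was 28552 bp away, among the 3 farthest in the family. It was the member of group IIc that was touched; the other 17 of 18 had no base in either list. Of genes like those of group IIc, 20.3% were touched by H3K27me1 and 9.37% by 5mC.

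The 3 genes with both marks differed in whether the marks met. In WRKY41, a regulator of seed dormancy in group III, both lists called the same interval, chr4:6759301-6759600, which was 17.7% of its 1697 bp. That interval held 199 H3K27me1 reads and 248 5mC reads. By reads per kb the H3K27me1 domain was at percentile 84.9 of its list, the highest of the 9 H3K27me1 domains on WRKY genes. The 5mC domain was at percentile 27.8 of its own list.

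In WRKY42 and WRKY19 the marks lay apart. WRKY42, which with WRKY6 controls the phosphate exporter gene PHO1, had 300 bp (9.32%) in an H3K27me1 domain at chr4:2220601-2220900 and 150 bp (4.66%) in a 5mC domain at chr4:2218651-2218800. WRKY19 is the longest member, with 8171 bp, and encodes a fusion of an immune receptor, a WRKY domain and a kinase. It had a pair of H3K27me1 domains, of 600 and 300 bp, which together held 900 bp of the gene, and a 5mC domain of 300 bp (3.67%) at chr4:7207201-7207500. In neither gene did a domain share a base with a domain of the other mark.

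5mC without H3K27me1 was found in 3 genes. WRKY72, which acts in basal defence, had the highest 5mC share among them, 300 of 2805 bp (10.7%), at chr5:4906051-4906350 with 456 reads. WRKY47 had 300 of 3751 bp (8.00%) at chr4:747601-747900 with 540 reads, the most of any 5mC domain on a WRKY gene. Both domains lay well inside the gene, 744 and 654 bp from the nearer edge. Along with WRKY42, these genes belong to group IIb, where 3 of 8 members were touched by 5mC (37.5%, with 17.7% of like genes).

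WRKY17 was touched at its edge only. A 5mC domain of 450 bp at chr2:10437001-10437450 overlapped the last 98 bp at one end of the gene (4.63%), and the H3K27me1 domain that starts at the same base ended 52 bp short of it. All 300 bp of that H3K27me1 domain were in the 5mC domain. WRKY11, which like WRKY17 dampens basal resistance to bacteria, was far from both marks, at 14687 bp from H3K27me1 and 15416 bp from 5mC.

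The domains on WRKY genes were short, with reads per kb close to those of arm domains on any protein-coding gene. Of the 15 domains, 13 lay wholly inside the gene, and 9 were exactly 300 bp wide. The 9 H3K27me1 domains had a median width of 300 bp and a median of 417 reads per kb, where the 5970 arm domains on any protein-coding gene had 600 bp and 404 reads per kb. A single one, on WRKY41, was above the median reads per kb of the H3K27me1 list (447), and a single one, on WRKY34, was at least 1000 bp wide. Of the arm domains on protein-coding genes, 1730 (29.0%) were above that median and 1019 (17.1%) were at least 1000 bp wide. The median count was 199 reads for the 9 H3K27me1 domains and 235 reads for those arm domains. No domain of the H3K27me1 list held fewer than 114 reads. The 300 bp domains on WRKY19, WRKY23, WRKY67 and WRKY42 held 120, 124, 127 and 131 reads, close to that floor. The 6 5mC domains had a median width of 300 bp and 993 reads per kb, close to the 300 bp and 1007 reads per kb of the 3589 arm domains on protein-coding genes. Those on WRKY47 and WRKY72, at 1800 and 1520 reads per kb, were above the list's median of 1073. Of the 5mC arm domains on protein-coding genes, 43.5% were above it.

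Since most domains on the family were narrow or below the median reads per kb of their list, the counts depend on them. With the upper 50% of each list by reads per kb, H3K27me1 touched WRKY41 alone and 5mC touched WRKY47 and WRKY72, where 7.08% and 5.88% of like genes were touched. With domains of at least 1000 bp, WRKY34 alone was touched by H3K27me1 and no member by 5mC, next to 4.71% and 1.86% of like genes.

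Distances were taken from all genes, with a touched gene counted at 0 bp, so they partly restate the touched counts. The median distance from a WRKY gene to the nearest H3K27me1 domain was 5184 bp (quartiles 1485 and 12607 bp), against 2990 bp (354 and 8284 bp) for genes of like length and region. To the nearest 5mC domain it was 5251 bp (1533 and 11956 bp), against 5180 bp (1270 and 12351 bp). The H3K27me1 distances were thus longer than in like genes, and the 5mC distances were close to them. An H3K27me1 domain lay in the gene or within 1000 bp of it for 13 WRKY genes (19.4%), with 34.4% over all protein-coding genes and 33.4% over like genes. For 5mC this held for 11 (16.4%), with 26.9% and 22.3%. More than 20 kb separated 10 WRKY genes (14.9%) from any H3K27me1 domain, against 5.94% of like genes; for 5mC it was also 10 genes, against 12.6%.

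**Figure D2:**
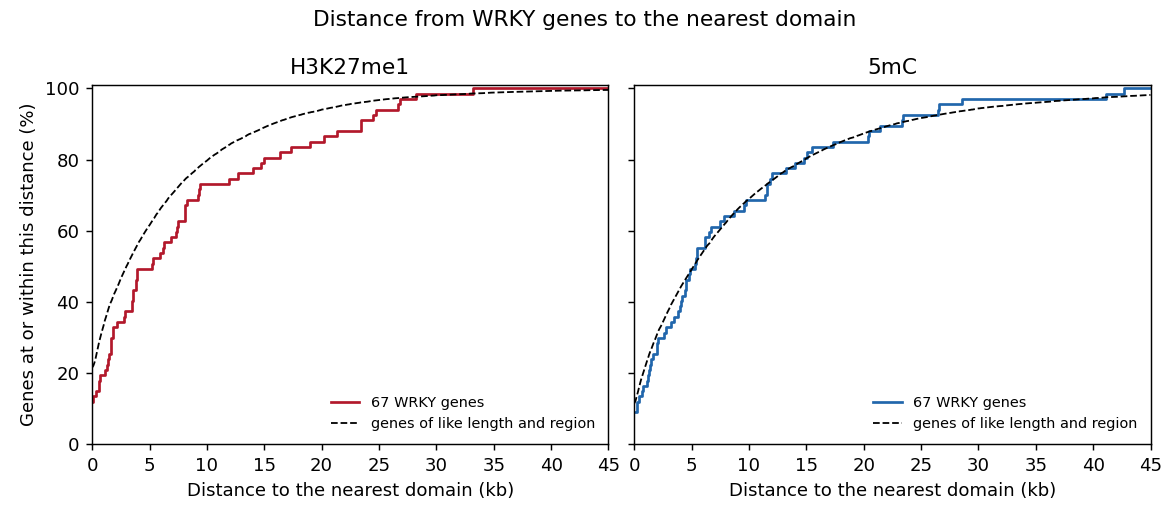
Cumulative share of genes (%) by distance to the nearest domain (kb), for H3K27me1 and 5mC. Coloured steps are the 67 WRKY genes and dashed lines are genes of like length and region; for H3K27me1 the WRKY line runs below the dashed one over most distances, with 14.9% of members against 5.94% of like genes beyond 20 kb, and for 5mC it runs close to it.

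Counting domains within 1000 bp raised the H3K27me1 share from 11.9 to 19.4% of WRKY genes and from 21.6 to 33.4% of like genes. The 5mC share rose from 8.96 to 16.4% of WRKY genes and from 11.5 to 22.3% of like genes. Domains just outside a gene thus added 5 members for each mark, and these are named as a description. For H3K27me1 these were WRKY17, WRKY26 (235 bp), WRKY25 (507 bp), WRKY59 (543 bp) and WRKY24 (623 bp). The domains next to WRKY24, WRKY25 and WRKY26 overlapped the neighbouring protein-coding genes AT5G41580, ATCHX13 and PRA1.B6, and the one next to WRKY59 a transcribed pseudogene. WRKY25 and WRKY26 act with WRKY33 in the response to heat. For 5mC they were WRKY22 (151 bp), WRKY7, WRKY64, WRKY48 (697 bp) and WRKY58 (788 bp). WRKY22 had a 5mC domain on either side, the farther one with 638 reads in 300 bp, at percentile 94.2 of the list by reads per kb.

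In the first 500 bp outside the gene edges, H3K27me1 covered 1.23% of bases for WRKY genes and 2.38% for like genes. The values were 2.90% and 5.83% between 500 and 1000 bp, and 6.46% and 7.02% between 5000 and 10000 bp. Coverage was lower next to WRKY genes than next to like genes in each of the 6 distance classes, out to 20 kb. For 5mC, coverage was also lower next to WRKY genes in 5 of the 6 classes. It was 1.59% against 2.17% in the first 500 bp, 2.16% against 3.62% between 500 and 1000 bp, and 3.90% against 5.00% between 10000 and 20000 bp. The exception was the class from 1000 to 2000 bp, with 4.08% and 4.06%.

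**Figure D3:**
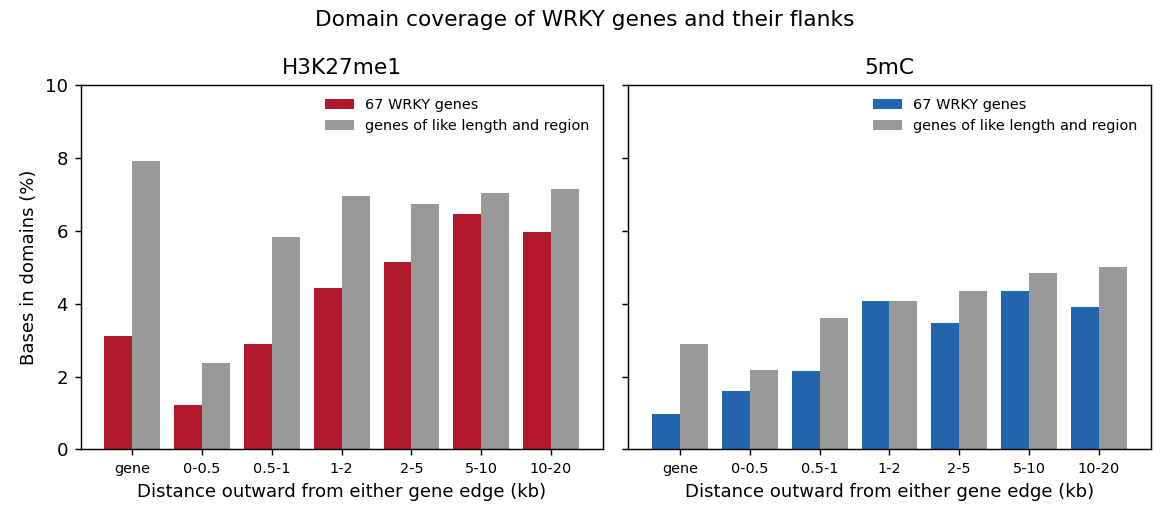
Percent of bases in domains within the gene and in 6 distance classes outward from both gene edges (kb), for H3K27me1 and 5mC. Coloured bars are the 67 WRKY genes and grey bars genes of like length and region. For H3K27me1 the gap is widest inside the gene, 3.12% against 7.91%.

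Of 10 well studied members, 9 had no base in either list and WRKY60 was touched. This is close to the 56 of 67 in the family as a whole, and their distances are given as a description. WRKY33, which drives camalexin synthesis, was 3434 bp from the nearest H3K27me1 domain and 6134 bp from the nearest 5mC domain. WRKY70, which balances salicylic and jasmonic acid responses, was 8010 and 6127 bp away. WRKY53, a regulator of leaf senescence, was 14969 and 7469 bp away. The senescence and phosphate regulators WRKY6 and WRKY75 were 8068 and 5837 bp from H3K27me1 and 11956 and 14749 bp from 5mC. WRKY22 and WRKY29, which act downstream of flagellin perception, differed in their surroundings: H3K27me1 was 1729 bp from WRKY22 and 24631 bp from WRKY29.

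The members farthest from H3K27me1 were WRKY4, which acts in defence against necrotrophs (33180 bp), WRKY48 (28147 bp) and WRKY54 (26718 bp). Those farthest from 5mC were WRKY36 (42697 bp), WRKY8 (41044 bp) and WRKY23. WRKY48 nonetheless had a 5mC domain within 1 kb, and WRKY23 was touched by H3K27me1.

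By group, H3K27me1 touched 2 of 12 members of group I, 1 of 3 of IIa, 1 of 8 of IIb, 1 of 18 of IIc, 1 of 7 of IId, none of 7 of IIe and 2 of 12 of group III. 5mC touched 1, 0, 3, 0, 1, 0 and 1 of them in the same order. The shares for genes of like length and region ran from 20.2 to 23.9% over the 7 groups for H3K27me1 and from 7.60 to 17.7% for 5mC. Group IIe, which includes WRKY22 and WRKY29, had no base in either list, where 21.5% and 9.74% of like genes were touched. Its median distance to H3K27me1 was 13997 bp, the longest of the 7 groups, and the shortest was 1300 bp in IIa. With so few genes in each group, these counts describe the genes and do not rank the groups.

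Most of the marked genes lay on chromosome 4. This chromosome held 16 members, of which 5 were touched by H3K27me1 (31.3%, like genes 22.9%) and 4 by 5mC (25%, like genes 14.7%). All 3 genes with both marks were among them. On the other 4 chromosomes, 3 of 51 members were touched by H3K27me1 (5.88%, like genes 21.1%) and 2 by 5mC (3.92%, like genes 10.5%). Over all protein-coding genes, H3K27me1 touched 23.8% on chromosome 4 and from 21.8 to 22.5% on the others. For 5mC the share was 16.0% on chromosome 4 and from 14.5 to 17.4% on the others. On chromosome 3, none of 6 members was touched by either mark, and on chromosome 5 none of 15 by H3K27me1.

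Position and length of the members were those of ordinary arm genes. On the arms lay 65 members (97.0%), compared with 91.2% of all protein-coding genes, and their median length was 2006 bp compared with 2078 bp. The median distance to the nearest pseudogene, the class that holds annotated transposon loci, was 34537 bp, and 34199 bp for genes of like length and region. The 2 members in pericentromeres were WRKY42 and WRKY74. WRKY74 had neither mark in its body, with a 5mC domain 1996 bp and an H3K27me1 domain 3796 bp away. Among the longest 22 members, from 2344 to 8171 bp, H3K27me1 touched 2 (9.09%, like genes 23.5%) and 5mC touched 4 (18.2%, like genes 17.6%). In the 22 of middle length, H3K27me1 touched 4 (18.2%, like genes 21.1%) and 5mC 1 (4.55%, like genes 8.97%). In the 23 shortest, the counts were 2 (8.70%, like genes 20.1%) and 1 (4.35%, like genes 7.97%).

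Of the 5 genes with a WRKY number among their synonyms, ABO3 and RRS1 were touched by H3K27me1 and none by 5mC. RRS1, an immune receptor that carries a WRKY domain, had 600 of 6718 bp (8.93%) in domains. TTR1, another receptor of this kind, TTG2, which acts in trichomes and the seed coat, and ZAP1 had no covered base. With these genes added, the H3K27me1 count was 10 of 72 and the 5mC count stayed at 6. Over all protein-coding genes the shares touched were 22.3% and 15.6%. No like share was computed for the added genes or for the larger set.

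Other large families of transcription factors gave a scale for these counts. Of 115 MYB genes, H3K27me1 touched 10 (8.70%, like genes 21.1%) and 5mC touched 2 (1.74%, like genes 10.1%). Of 79 NAC genes, H3K27me1 touched 15 (19.0%, like genes 21.4%) and 5mC touched 4 (5.06%, like genes 12.3%). Of 21 ERF genes, 3 had H3K27me1 (14.3%, like genes 18.9%) and none had 5mC (like genes 7.14%). The share touched was below that of like genes for both marks in all 4 families. For H3K27me1 the NAC share was close to that of like genes, and the ERF share rested on 3 of 21 genes. The WRKY share for H3K27me1 lay between those of MYB and ERF.

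**Figure D4:**
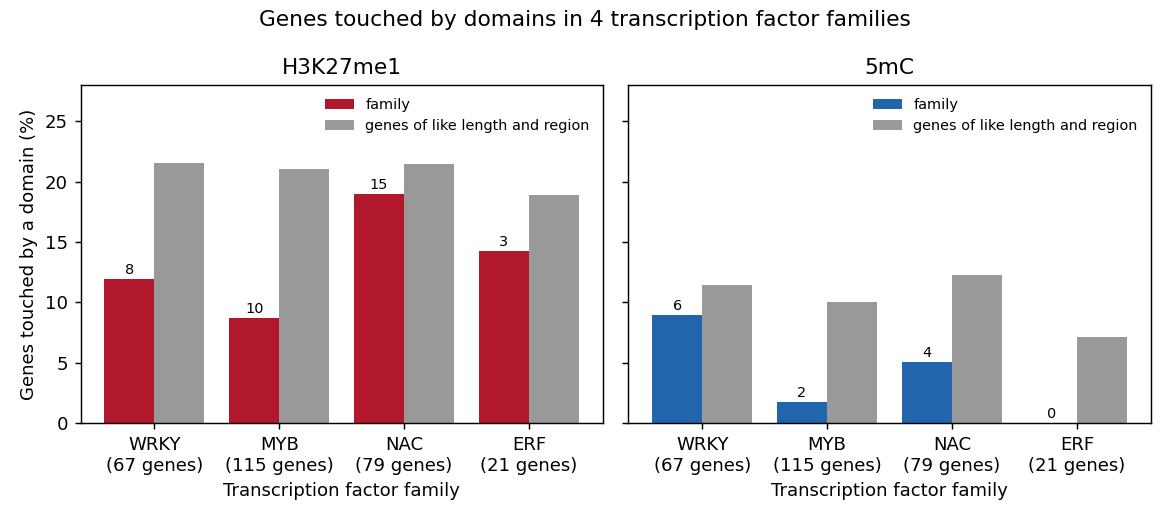
Share of genes (%) touched by at least 1 bp of H3K27me1 or 5mC domains in the WRKY, MYB, NAC and ERF families (coloured bars, with the number of genes touched above them) and in genes of the same length and region as each family (grey bars). For 5mC the WRKY bar, 8.96%, is the highest of the 4 families.

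Genes that act with WRKY factors in signalling, or that they regulate, were taken as a further list. It was chosen with earlier results of these data known. Of 24 such genes, 9 were touched by H3K27me1 (37.5%, like genes 23.7%) and 3 by 5mC (12.5%, like genes 20.7%). PR1, the classic marker of salicylic acid responses, lies in a pericentromere and had 600 of 902 bp (66.5%) in H3K27me1 domains. It was the only gene of the 24 at or above 50%, a level that 7.62% of all protein-coding genes reached. PAD4, a lipase-like regulator of immunity, had 35.8% in H3K27me1 and 8.94% in 5mC domains, and CBP60g, a factor upstream of salicylic acid synthesis, had 900 of 3099 bp in H3K27me1 domains. MPK4, a MAP kinase that binds MKS1 and WRKY33, had 17.7% and 2.48%. MEKK1, the kinase upstream of it and also pericentromeric, had 16.4% in 5mC domains only. PAD3 (16.0%), the last enzyme of camalexin synthesis and a WRKY33 target, ICS1 (7.73%), an enzyme of salicylic acid synthesis, the flagellin-induced kinase FRK1 (7.70%), the seed-size kinase IKU2 (8.30%) and RRS1 had H3K27me1 alone. The kinases MPK3, MPK6, MKK4 and MKK5, the co-activator NPR1 and the flagellin receptor FLS2 had no base in either list.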

How the data were processed

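The authors deposited 1 domain list per mark. Bowtie, SICER and build TAIR10 are named per the submitters' processing notes; the sources used here do not give versions, thresholds, or how input and replicates were used. Each deposited line holds a position and a raw count of reads; counts only describe and rank domains within 1 list. The lists held 13068 H3K27me1 domains (12706852 reads) and 12238 5mC domains (28021211 reads), sums that are not library depths. Domain edges fall on steps of 300 bp (H3K27me1) or 150 bp (5mC). Positions are printed counting from 1.

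Genes came from the RefSeq table of TAIR10.1; its build name differs from that of the lists, so its coordinates are not printed. Pseudogenes overlapped domains best at an offset of 0 bp on each chromosome (steps of 50 bp up to 5000 bp). The table gives no strand or exons. Pericentromeres (26.9 Mb) were runs of 100 kb windows whose protein-coding coverage, averaged over 11 windows, was under 0.7 of the chromosome's median. Like genes were all protein-coding genes, members included, weighted to the members' length deciles and regions (Python 3.11.15, numpy 2.4.6, pandas 2.3.3; code tested on simulated data).

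The members and lists were chosen with earlier results of these data known, and the WRKY groups follow the standard classification. Named were members touched, within 1000 bp of a domain or pericentromeric, the 3 farthest from each mark, 10 well studied ones, and signalling genes touched. WRKY2, WRKY11, WRKY55 and the untouched signalling genes were named after their values were seen. Sequences were not used here, so protein domains and W-boxes were not analysed. The alternatives tried were stricter lists, other overlaps and other classes of like genes.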

Additional observations from a re-analysis of the deposited data

How the results depend on the processing

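No paired analysis was possible because the lists hold no value per replicate, and for the same reason no replicate could be left out. Of 52 recomputed values, 24 stayed within 1.5 times the main value. These 24 include the count of WRKY genes at 50% in 5mC domains, which was 0 in the main setting and stayed 0. They also include like shares under other classes of length and region, which are not WRKY counts. With the upper 50% of each list by reads per kb, 1 gene was touched by H3K27me1 and 2 by 5mC, none had 50% of its body (0) in H3K27me1, bases covered were 0.199% and 0.398%, median distances 14687 and 15055 bp, and like genes touched 7.08% and 5.88%. With domains of at least 1000 bp, 1 and 0 genes were touched, bases covered were 0.932% and 0%, distances 33448 and 52796 bp, and like genes touched 4.71% and 1.86%. Domains widened by 1 window gave 6.55% and 2.05% of bases, and 4 genes at 50% in H3K27me1, with no like share for this level. With 1000 bp added on each side of the genes, 13 and 11 were touched, with 33.4% and 22.3% of like genes, and 0 were at 50%. With touched set at 10% of the gene, 5mC counted 2 genes and H3K27me1 7. No like share is given at this cutoff, so these counts are not set against other genes. Without chromosome 4, an alternative added after seeing the data, 3 and 2 were touched. Length quintiles, pericentromeres of fixed width and length alone gave 21.4 to 22.2% of like genes for H3K27me1 and 11.5 to 12.8% for 5mC. Weak or sparse marks below the calling threshold, which the sources used here do not give, would not be seen.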
